A study of Mus musculus with 26 samples.

Results

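The hearts described here came from 5 wild-type mouse embryos at embryonic day 12.5. They were selected as the hearts whose labels carry the genotype mark for wild type, numbers 1, 2, 7, 9 and N1, out of 13 hearts in the series, of which 4 were heterozygous and 4 null. All embryos belong to a mouse line that models congenital heart disease: its mutant allele encodes Nkx2.5, a regulator of heart development, without the NK2-specific domain. The hearts described here are labelled wild type, which is taken to mean that both alleles are intact. Total RNA of each entire heart was hybridised to an A and a B oligonucleotide array, which gave 10 of the 26 arrays of the series. The labels used here name no litter, strain or treatment for these embryos, so the spread between hearts may hold both biological and technical parts. No genotypes are compared.

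At midgestation the mouse heart already beats and is forming its chambers, and its wall consists of heart muscle cells, the endocardium that lines it, the epicardium that covers it, and cushion mesenchyme that will form valves and septa. Heart muscle contracts by sliding of actin thin filaments along myosin thick filaments within the sarcomere, under the control of calcium and troponin, and is supplied with energy by mitochondria and glycolysis. Embryonic blood fills the chambers, and at this stage primitive red cells with embryonic globins are being joined by definitive red cells from the liver. A whole heart therefore yields RNA of muscle, lining, covering, matrix-producing cells and blood together. In such bulk RNA, fewer cells of a type cannot be told apart from less RNA of a gene per cell.

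Each value is the array intensity of 1 probe set, a group of short oligonucleotides for 1 transcript, on a linear scale on which background had been subtracted, so that values of unexpressed probe sets scatter around 0 and many are negative. The noise of an array table was taken as the root mean square of the negative values, 443 on A and 686 on B, and a value counted as above background when it exceeded 2 times this noise, 887 on A and 1373 on B. Intensities of different probe sets also depend on how well the oligonucleotides bind, so ranks below order signals and not amounts of transcript. The A array of heart 1 lacked 81.3% of its values, and the B arrays of hearts 9 and N1 lacked 71.4% each. Most A values below therefore rest on hearts 2, 7, 9 and N1, and many B values on hearts 1, 2 and 7. With 3 to 5 arrays behind it, each mean has limited precision.

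Of 6270 A probe sets with at least 3 wild-type values, 2106 (33.6%) were above background in every heart with a value, 824 in some hearts and 3340 in none. Of 6045 such B probe sets, 1312 (21.7%) were above background in every heart, 645 in some and 4088 in none. The named probe sets covered 5951 genes, each represented by its probe set of highest mean, and 2083 of these genes (35%) were above background in every heart. Another 826 were so in some hearts and 3042 in none, the numbers to set beside the list counts below. Over the probe sets with a value in all 5 hearts, the share above background ran from 49% to 52% on A and from 29.7% to 34% on B. Spearman correlations between hearts over probe sets, which share array design and scaling, lay between 0.919 and 0.975 on A, and between 0.887 and 0.958 on B.

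The strongest signals came from genes of energy supply, contraction, protein synthesis and blood. The upstream sequences of 4 genes are given here because probe sets of these genes, 3 globins and the ATP synthase subunit Atp5b, were among the brightest. Each is the run of 250 bases before the annotated start, 5′ to 3′ on the gene's strand, from RefSeq on GRCm38.p6. Capitals mark TATAAA, the classic core element bound by the TATA-binding protein, CCAAT, the element bound by the NF-Y factor, and GGGCGG, the GC box bound by Sp1-type factors, each searched on both strands. Hba-x, the embryonic zeta-like alpha globin, lies on the plus strand (chr11:32276350-32276599), Hba-a1, the adult alpha globin, on the plus strand (chr11:32283422-32283671), Hbb-y, an embryonic beta-like globin, on the minus strand (chr7:103853208-103853457), and Atp5b on the plus strand (chr10:128083057-128083306).
Hba-x: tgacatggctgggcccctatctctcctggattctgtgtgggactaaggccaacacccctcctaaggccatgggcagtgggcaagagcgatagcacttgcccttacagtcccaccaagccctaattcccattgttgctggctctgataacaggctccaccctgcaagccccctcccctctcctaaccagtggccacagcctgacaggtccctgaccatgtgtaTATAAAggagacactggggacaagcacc
Hba-a1: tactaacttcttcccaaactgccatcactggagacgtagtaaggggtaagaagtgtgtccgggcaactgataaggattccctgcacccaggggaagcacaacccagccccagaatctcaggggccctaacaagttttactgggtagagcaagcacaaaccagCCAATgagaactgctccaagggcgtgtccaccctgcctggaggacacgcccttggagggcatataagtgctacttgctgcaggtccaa
Hbb-y: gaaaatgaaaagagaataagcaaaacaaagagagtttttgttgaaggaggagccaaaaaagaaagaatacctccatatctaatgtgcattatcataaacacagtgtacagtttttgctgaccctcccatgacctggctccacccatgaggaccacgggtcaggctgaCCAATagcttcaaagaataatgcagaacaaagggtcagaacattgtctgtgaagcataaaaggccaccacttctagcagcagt
Atp5b: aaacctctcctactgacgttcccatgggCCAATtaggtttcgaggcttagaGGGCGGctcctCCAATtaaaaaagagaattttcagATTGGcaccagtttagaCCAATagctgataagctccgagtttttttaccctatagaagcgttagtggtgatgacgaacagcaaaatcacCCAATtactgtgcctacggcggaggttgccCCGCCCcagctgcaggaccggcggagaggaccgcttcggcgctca
TATAAA begins 28 bases before the start of Hba-x. CCAAT begins 88 bases before that of Hba-a1 and 83 bases before that of Hbb-y. The window of Atp5b holds 5 copies of CCAAT and 2 of GGGCGG on either strand, and none of TATAAA. These matches describe the letters of the windows only.

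Over all 32851 windows of this length in the RefSeq table, 12.4% held TATAAA, 33.8% CCAAT and 32.7% GGGCGG on either strand. Genes measured here had windows for 4745 of 5951 symbols. Over their 6065 windows, 9.12% held TATAAA, 34.7% CCAAT and 52.4% GGGCGG, the shares to set beside those below. GGGCGG was in 59.4% of the 2197 windows of genes above background in every heart, in 57.6% of the 872 windows of genes above background in some hearts, and in 45.7% of the 2996 windows of genes above background in none. For the 50 leading named probe sets GGGCGG was in 53.4% of 58 windows on A, near the share of measured genes, and in 37.5% of 40 windows on B. Among list genes above background in every heart it was in 29.4% of 17 windows for the sarcomere and 30% of 30 for oxidative phosphorylation. It was in 41.2% of 34 for ribosomal proteins and 60% of 10 for collagens. TATAAA was in 7.51%, 5.73% and 11.3% of the windows of the 3 detection classes, lowest for genes above background in some hearts. It was in 11 of 58 windows (19%) of the 50 leading named A probe sets and in 5 of 40 (12.5%) of those on B. CCAAT differed little across the detection classes, at 34.7%, 32.3% and 35.3%. Genes with several annotated starts contribute several windows, so the windows are not independent.

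Atp5b, the beta subunit of mitochondrial ATP synthase, had the highest mean of the named A probe sets with at least 3 values, 64748 ± 5585 (SD, n = 4). Its values were 69452, 59955, 69714 and 59869 in hearts 2, 7, 9 and N1, 2 hearts near the top and 2 near the bottom of a narrow range. Myl4, the atrial and embryonic essential myosin light chain, came next at 63462 ± 7431 (SD, n = 4), with 74257, 61929.5, 60229.6 and 57432 in hearts 2, 7, 9 and N1. Heart 2 read highest. Hba-x gave 67713, 48847, 56779 and 61495 in hearts 2, 7, 9 and N1 and a mean of 58708 ± 7954 (SD, n = 4). Hbb-y, likewise among the 5 leading probe sets, read 70362, 45672, 54598 and 50508 in hearts 2, 7, 9 and N1. The elongation factor Eef1a1, which delivers aminoacyl-tRNA to the ribosome, gave 74374, 48315, 56309 and 54798 in hearts 2, 7, 9 and N1. For Hba-x, Hbb-y and Eef1a1, heart 2 was highest and heart 7 lowest.

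**Figure D1:**
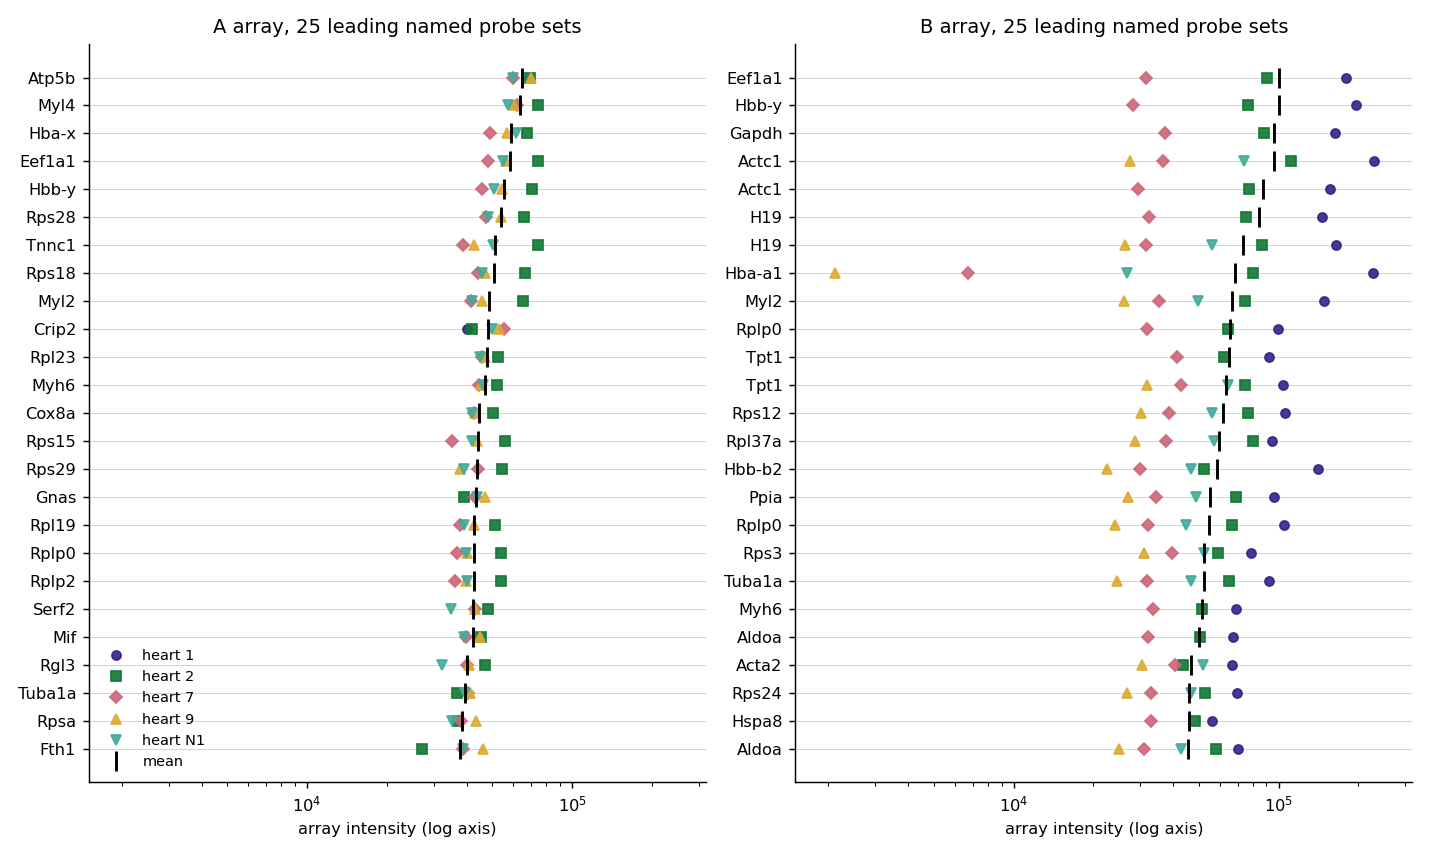
Array intensity (log axis) of the 25 leading named probe sets of the A and B arrays in each wild-type heart with a value; the vertical bars are means. On A, values of a probe set lie close together and heart 2 is often highest; on B, heart 1 lies furthest to the right and heart 7, or 9 where it has a value, furthest to the left, and Hba-a1 spans 2117 to 227332.

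The 50 leading named A probe sets named 49 genes. By list, 18 probe sets belonged to cytosolic ribosomal proteins, 7 to oxidative phosphorylation or the tricarboxylic acid cycle, 5 to the sarcomere, 3 to the cytoskeleton and 2 to globins. The 10 in no list included Crip2, a LIM protein of the heart and vessels, Mif, a cytokine-like tautomerase, the aspartate aminotransferase Got2, and Gyg, the primer of glycogen synthesis. Also in no list were Atp5md and Atp5mpl, by their symbols ATP synthase genes, and Rpl32l, by its symbol ribosomal protein-like. The counts of 7 and 18 leave these out. Crip2 was 1 of 3 of these 50 probe sets with a value in heart 1. It read 40255, 41920.3, 55496, 52961 and 49648 in hearts 1, 2, 7, 9 and N1, a mean of 48056 ± 6717 (SD, n = 5), with hearts 1 and 2 below the others. On B the 50 leading named probe sets named 40 genes, of which 13 probe sets were ribosomal, 6 sarcomeric, 5 glycolytic, 5 cytoskeletal, 4 of translation factors and 3 of globins.

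Most of the brightest probe sets were of one design. Among the 100 brightest probe sets of any kind, 67 on A and 88 on B carried the suffix that marks probes shared by members of a gene family, against 6.44% and 20.4% of all probe sets. The 100 brightest held 27.9% of the summed positive mean signal on A and 32.6% on B. Only 65 of these 100 had a single gene name on A, and 49 on B. The brightest A probe set with at least 3 values was one for the murine B2 repeat, a short interspersed element that is copied throughout the genome and sits in many transcripts. It read 91626, 74422, 51989, 58949 and 49595 in hearts 1, 2, 7, 9 and N1. Of the 50 leading named probe sets, 1 on A and 1 on B had the plain suffix. On A it was Atp5b. Signals at the top of both ranks may thus include those of related transcripts.

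Sarcomere genes gave some of the strongest signals. Of the thick filament list, 5 of 8 measured genes were above background in every heart, with a median percentile of 97.7 among named probe sets of their table, where all named genes had a median of 52.5. Myh6, the alpha heavy chain of cardiac myosin, read 52178, 44409, 45428 and 46083 in hearts 2, 7, 9 and N1 on A, a mean of 47024 ± 3504 (SD, n = 4). Its B probe set read 69172, 51270.2 and 33458 in hearts 1, 2 and 7, highest in heart 1 and lowest in heart 7. Myl2, the ventricular regulatory light chain, gave 64971, 41648, 45518 and 41989 in hearts 2, 7, 9 and N1 on A, and Myl3, the ventricular essential light chain, 61217, 49594, 29263, 23286 and 39453 in hearts 1, 2, 7, 9 and N1 on B. Myl1, the light chain of fast skeletal and embryonic muscle, averaged 11720.1 ± 1575 (SD, n = 4) on A. The 3 members not above background in any heart were Myh3, Myh4 and Myh8, heavy chains of embryonic, fast and perinatal skeletal muscle. Myh7 and Myl7, the beta heavy chain and the atrial regulatory light chain, had no named probe set and were not analysed here.

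Of 12 measured thin filament genes, 10 were above background in every heart, at a median percentile of 92.2. Actc1, the cardiac alpha actin, had the highest mean of the named B probe sets with all 5 values, and read 229274, 111742, 36779, 27376 and 73894 in hearts 1, 2, 7, 9 and N1. Hearts 7 and 9 were the lowest and heart 1 the highest, an order that most bright B probe sets shared, as given below. Tnnc1, the calcium-binding troponin C of heart and slow muscle, read 74027, 38609.7, 42458 and 50200.1 in hearts 2, 7, 9 and N1, with heart 2 apart from the others. Tnnt2, the cardiac tropomyosin-binding troponin, gave 47153, 29692, 25211 and 38907 in hearts 2, 7, 9 and N1, and Tnni3, the inhibitory subunit of the adult heart, 41538, 37269.7, 28426, 22474 and 38974 in hearts 1, 2, 7, 9 and N1. Acta1, the skeletal alpha actin that the embryonic heart also makes, averaged 16047 ± 3853 (SD, n = 4). The tropomyosins Tpm4, Tpm1, Tpm2 and Tpm3 were above background in every heart by their brightest probe sets, with means from 1640 to 7252. Tnni2, the fast skeletal inhibitory subunit, was near the background with 2290.0, 993, 1201 and 1316 in hearts 2, 7, 9 and N1, while Tnnc2 and Tnnt3, its partners in fast muscle, were not above background in any heart. No named probe set measured Tnni1, the slow isoform of embryonic muscle.

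Structural and signalling genes of the muscle cell were mostly detected. In the list of the Z-disc, M-band and costamere, 6 of 10 measured genes were above background in every heart, led by the small heat-shock protein Cryab, a chaperone of desmin, at 18395 ± 2086 (SD, n = 3) on B and 15923 ± 717 (SD, n = 4) on A. Des, desmin itself, read 7727, 8483, 4215 and 8861 in hearts 2, 7, 9 and N1, lowest in heart 9. Vcl, Actn3, Dmd and Itga7 were not above background in any heart. In calcium handling, 8 of 13 genes passed in every heart. Atp2a2, the pump that returns calcium to the sarcoplasmic reticulum, read 20293, 27754, 27974, 21966 and 25791 in hearts 1, 2, 7, 9 and N1, with hearts 1 and 9 below the other 3. Slc8a1, the sodium-calcium exchanger, was even at 9474, 9987, 9561 and 9884 in hearts 2, 7, 9 and N1, and Ryr2, the calcium release channel, at 3433, 3220.4, 3479, 4013 and 3352 in hearts 1, 2, 7, 9 and N1. A second Slc8a1 probe set on A was in no heart above background. Atp2a1 and Ryr1, the skeletal muscle pump and release channel, were below background in every heart.

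Among conduction and ion channel genes, 6 of 10 passed in every heart, and 3 with the background level at 3 times the noise. Atp1b1, the beta subunit of the sodium-potassium pump, averaged 30768 ± 4199 (SD, n = 5). Gja1, the gap junction protein connexin 43, read 6848, 7575, 10015, 7550.2 and 7417 in hearts 1, 2, 7, 9 and N1, and Kcne1, a regulatory subunit of slow potassium channels, 3344, 3116, 2942, 2938 and 2910.3 in hearts 1, 2, 7, 9 and N1. The Kcne1 values differed little between the 5 hearts. Nppb, the natriuretic peptide of stretched and embryonic myocardium, gave 9208, 7401, 11094 and 7243 in hearts 2, 7, 9 and N1. Cited1, a transcriptional co-activator, averaged 18225 ± 4105 (SD, n = 4). Nppc, Edn1, Nr2f1 and Nr2f2 were not above background in any heart, and the atrial peptide Nppa had no named probe set.

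Cardiac transcription factors had a median percentile of 54.6, near the 52.5 of all named genes. Of 12 measured, 2 were above background in every heart (1 with the middle instead of the brightest probe set of each gene), 4 in some and 6 in none. Of all 5951 named genes, 2083 (35%) were above background in every heart and 3042 in none. Gata6, a zinc-finger factor of heart and endoderm, read 6604, 8236, 7932 and 4256 in hearts 2, 7, 9 and N1, and Mef2d, a MADS-box factor of muscle, averaged 4069.6 ± 932 (SD, n = 4) by its brightest probe set, while the other 2 exceeded background in 1 heart and in none. Hand2 (2 of 3 hearts), Mef2c (3 of 5), Hand1 (2 of 4) and Tbx2 (1 of 5) were above background in some hearts, with means of 1834, 870.0, 935 and 1125. Mef2a, Mef2b, Tbx3, Rxra, Zfpm2 and Tead1 were above it in none. Nkx2-5 had no named probe set and was not analysed here. For the 6 genes above background in no heart the arrays give no level, only that the signal did not exceed the background level.

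**Figure D2:**
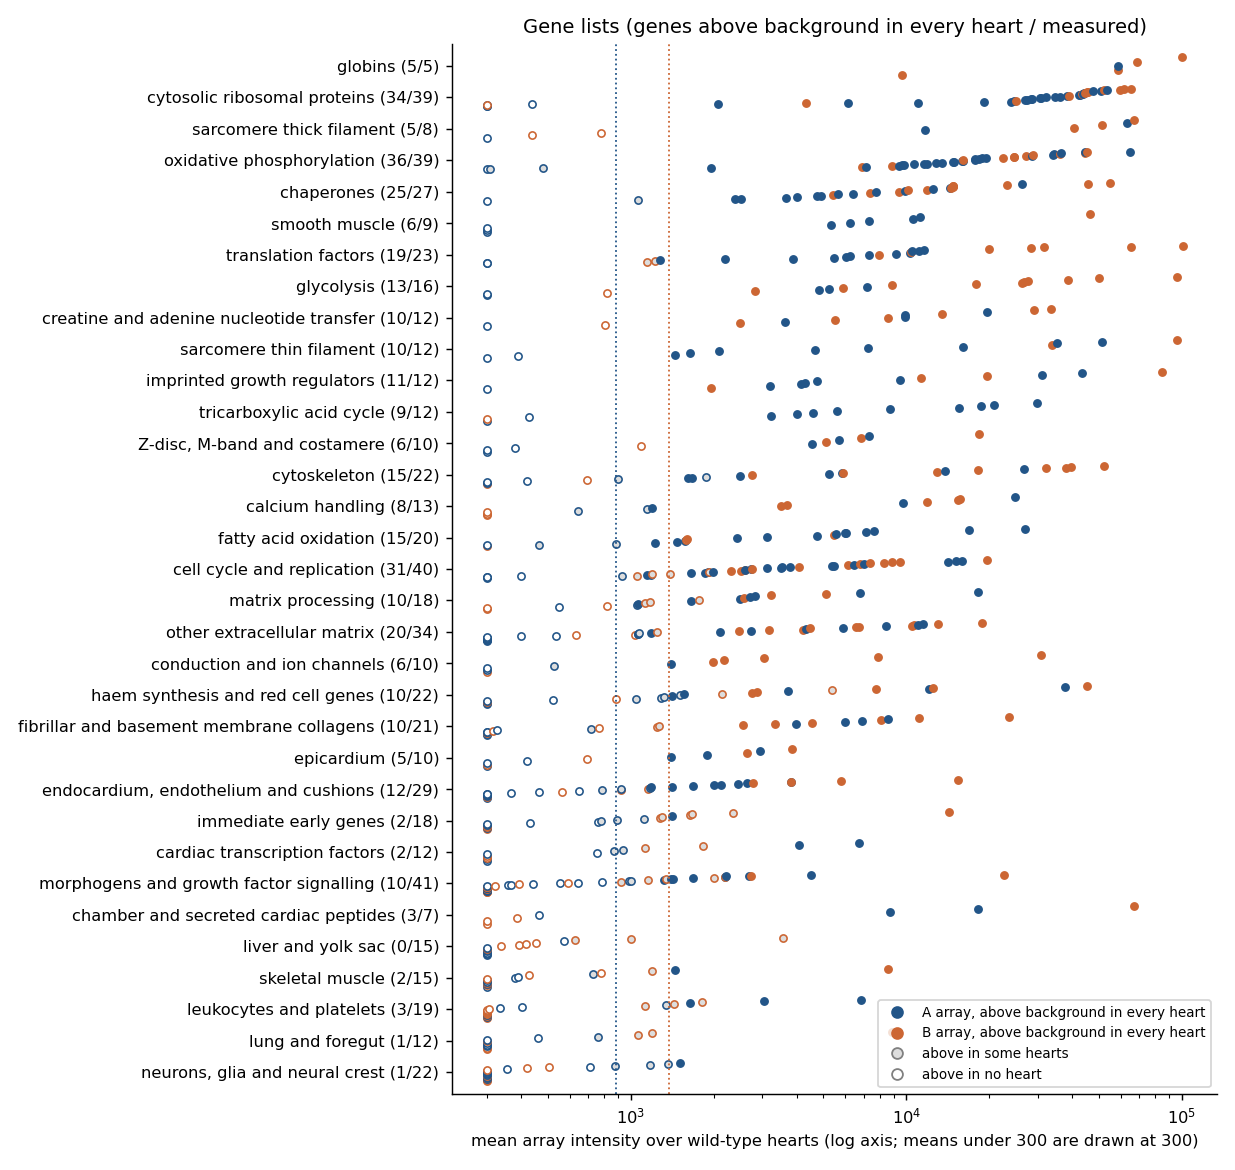
Mean intensity (log axis) of each measured gene of 33 lists over the wild-type hearts, by its brightest probe set, with lists ordered by median percentile; filled points were above background in every heart, grey points in some and open points in none, means under 300 are drawn at 300, and dotted lines are the background levels of A and B. Globins, ribosomal proteins, sarcomere and oxidative phosphorylation lie to the right, and most liver, lung and neuron genes lie at or left of the background.

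Genes of oxidative phosphorylation were detected almost throughout. Of 39 measured, 36 were above background in every heart, against 35% of all named genes, with a median percentile of 97.3. Beside Atp5b, the ATP synthase subunits Atp5o and Atp5g1 averaged 34293 ± 5073 (SD, n = 4) and 28521 ± 1674 (SD, n = 4), and subunits of cytochrome c oxidase such as Cox8a averaged 44435 ± 4004 (SD, n = 4). The spread was small for many: over 27 A probe sets of the list the median SD of log2 intensity was 0.17. Ndufa10 and Ndufb10, subunits of complex I, passed in 1 of 4 hearts each, and Atp5d in none. Cox7c gave opposite answers by array, with 45298 ± 19427 (SD, n = 5) on B and 352 ± 88.8 (SD, n = 5) on A, where no heart was above background. Of 12 tricarboxylic acid cycle genes 9 passed in every heart, among them the malate dehydrogenase Mdh1 at 29876 ± 2895 (SD, n = 4) and the isocitrate dehydrogenase Idh2 at 20888 ± 1775 (SD, n = 4), and Sdhc, Sdhd and Dlat passed in none.

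Glycolysis and fatty acid use were both represented. In glycolysis 13 of 16 genes were above background in every heart, with Gapdh, Aldoa and Ldha among the 50 leading named probe sets of B. Pkm, pyruvate kinase of muscle and embryonic tissue, read 26948, 28578, 25319, 19836 and 33353 in hearts 1, 2, 7, 9 and N1. Pgk1, Pfkm and the insulin-regulated glucose transporter Slc2a4 were in no heart above background, whereas Slc2a1, the transporter of the embryo, averaged 4826 ± 507 (SD, n = 4). In fatty acid oxidation 15 of 20 genes passed in every heart, 3 in some and 2, Acot1 and Ppara, in none. Fabp3, the fatty acid carrier of heart muscle, gave 28638, 28495, 29695 and 21154 in hearts 2, 7, 9 and N1, lowest in heart N1. The thiolase Acaa2 averaged 16826 ± 1164 (SD, n = 4), while Cpt1a and Cpt2, which move fatty acids into mitochondria, read 1467 ± 466 (SD, n = 4) and 1224 ± 275 (SD, n = 4), near the background. Of 12 genes of creatine and adenine nucleotide transfer 10 passed, including the outer membrane channel Vdac1 at 19551 ± 2659.6 (SD, n = 4) and the oxygen-binding myoglobin, Mb, at 13519 ± 2491 (SD, n = 5). Another Mb probe set on B was in no heart above background. Ckm, the muscle creatine kinase, read 4895, 5140.2 and 15663 in hearts 1, 2 and 7, and 2609, 2500.2, 6426, 3679 and 3212 in hearts 1, 2, 7, 9 and N1 by a second probe set, with heart 7 highest in both.

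All 5 measured globins were above background in every heart by their brightest probe sets, and 3 by the middle probe set of each gene. On B, Hba-a1 read 227332, 79920.2, 6712, 2117 and 26726 in hearts 1, 2, 7, 9 and N1, the largest spread of the named B probe sets above background in every heart (SD of log2 intensity 2.70, and 2.42 after quantile scaling). Heart 1 lay highest and heart 9 lowest. Hbb-b2, an adult beta globin, followed the same order over a smaller range, with 141002, 52158, 30114, 22510.3 and 46840.0 in hearts 1, 2, 7, 9 and N1. Hbb-bh1, an embryonic beta globin that was measured by a probe set without shared probes, read 9968, 5509.8 and 13373 in hearts 1, 2 and 7, and there heart 7 was highest and heart 2 lowest. The A probe set of Hbb-bh1 was in no heart above background. On A, where heart 1 had no value for them, Hba-x and Hbb-y had SDs of log2 intensity of 0.20 and 0.27, near the A median of 0.24. The shared probe set of Hbb-y on B, in hearts 1, 2 and 7, had an SD of 1.40, and 0.68 after quantile scaling. Plain probe sets of Hba-a1 and Hbb-y on B were in no heart above background, although the shared ones were among the brightest of the table.

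Genes of haem synthesis and the red cell membrane differed between hearts in another order. Of 22 measured genes 10 passed in every heart (45.5%, against 35% of all named genes), 6 in some and 6 in none. Car2, the carbonic anhydrase of red cells and other tissues, read 3459, 12374, 22501 and 10193 in hearts 2, 7, 9 and N1. Slc4a1, the anion exchanger of the red cell membrane, gave 1987, 3782, 7787 and 3127 in hearts 2, 7, 9 and N1 on A and 4351, 1852, 9516, 15383 and 7740.3 in hearts 1, 2, 7, 9 and N1 on B. Heart 9 was highest and heart 2 lowest in each of these probe sets. On B, Bpgm, which makes the haemoglobin ligand bisphosphoglycerate, read 2042, 815, 4716, 14956 and 4360.4 in hearts 1, 2, 7, 9 and N1, and Alas2, the first enzyme of haem synthesis in red cells, 9303, 4346 and 23986 in hearts 1, 2 and 7, again lowest in heart 2. Of the 7 A probe sets of the list that passed in every heart, which cover 6 genes, heart 9 was highest in 7 and heart 2 lowest in 6, while over all 2106 A probe sets heart 9 was highest in 571 and heart 2 lowest in 678. The list's counts were the same after quantile scaling. Heart 9 was lowest for Hba-a1 and Hbb-b2 and highest for Slc4a1 and Bpgm. Among hearts 1, 2 and 7 on B, heart 2 was lowest in 3 of the 5 probe sets of this list above background in every heart, and in 4 after quantile scaling, against 311 and 329 of all 1312.

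Some control readings on B ran in the same order of hearts as these globins, and so did most bright B probe sets. Of 38 B probe sets with 5 values and a mean over 32000, 32 fell in the order of hearts 1, 2, N1, 7 and 9. At means of 2000 to 16000 it was 2 of 354. The order is thus not particular to globins, nor to other bright B genes such as Actc1 and H19. On B arrays the bright end differed between hearts: over the 1830 probe sets with all 5 values, the 99th percentile was 70071, 56435, 32711, 26999.6 and 45242 in hearts 1, 2, 7, 9 and N1, whereas the 90th percentile ran only from 6364 to 7337. The spike-in control CreX, a phage transcript added in the laboratory, read 256960, 88266, 37659, 27408 and 57681 by its 3′ probe set, again from heart 1 down to heart 9. Other spike-ins were also highest in heart 1 but ran differently below it: the 3′ probe set of BioDn read 192146, 37870.5, 22318, 14724 and 19915 in hearts 1, 2, 7, 9 and N1, and that of BioB 17545, 3353, 4528, 3075 and 1506. On A, over the 1177 probe sets with all 5 values, the 99th percentile lay between 19903 and 21797. These hold only 3 of the 50 leading named A probe sets. In the other 47, without a value in heart 1, heart 2 was highest in 33. CreX on A lay between 41204.6 and 92199.9. The part of these readings in the globin values was not tested.

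**Figure D3:**
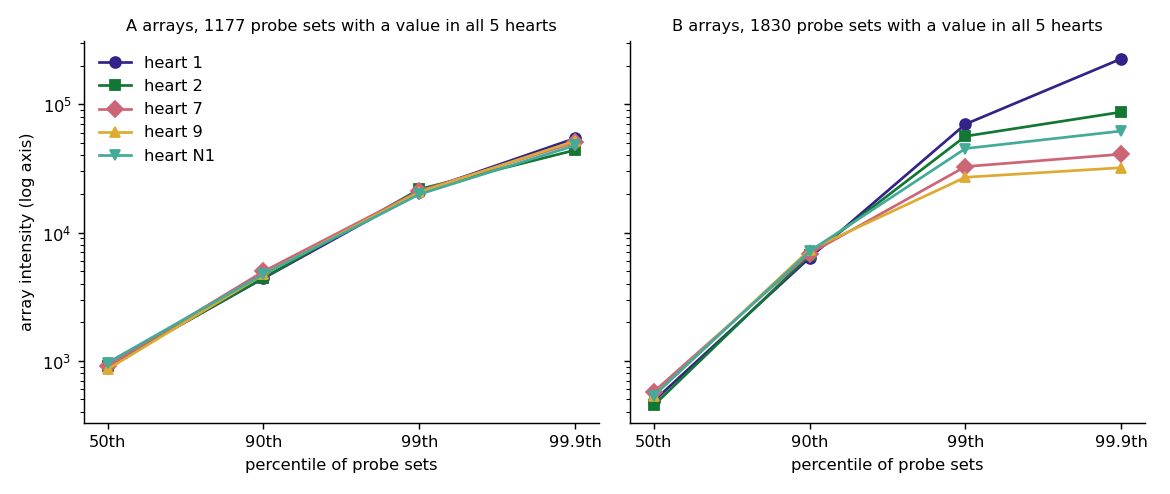
The 50th, 90th and 99th percentile and a percentile near the maximum of array intensity (log axis) in each wild-type heart, over the probe sets that have a value in all 5. Over these probe sets the A arrays lie close together, whereas the B arrays part above the 90th percentile, from 32052 in heart 9 to 226935 in heart 1 at the highest percentile. The 1177 probe sets on A hold only 3 of the 50 leading named A probe sets, so the A panel says little about the brightest ones.

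Collagens, the fibres of connective tissue and basement membranes, were mostly highest in heart 7. Of 21 measured collagen genes 10 were above background in every heart (47.6%, against 35% of all named genes), 3 in some and 8 in none. Col3a1, a fibrillar collagen of soft tissue, read 24101, 21879, 25770.3, 17067 and 29437 in hearts 1, 2, 7, 9 and N1 on B, and Col1a1, the main fibrillar collagen of bone and fibrous tissue, 8690.1, 7878, 20443, 6969.7 and 11786 in hearts 1, 2, 7, 9 and N1 on B and 5482, 14437, 5473 and 9198 in hearts 2, 7, 9 and N1 on A. Heart 7 was above the others for Col1a1 on both arrays, and heart N1 was highest for Col3a1. Among the A and B probe sets of the list that passed in every heart, heart 7 was the highest of hearts 2, 7, 9 and N1 in 7 of 8 on A and the highest of hearts 1, 2 and 7 in 8 of 8 on B. The same comparison over all probe sets gave 403 of 2106 on A and 499 of 1312 on B. Quantile scaling left 7 of 8 and 8 of 8. Several of these probe sets share a gene, 6 genes on each array. On B the pattern was not particular to collagens. There heart 7 was also highest in 8 of 11 probe sets of other matrix genes, before and after quantile scaling. In calcium handling it was highest in 5 of 6, and in 4 after quantile scaling. On A heart 7 was highest in 3 of 12 probe sets of other matrix genes. The basement membrane collagens Col4a1 and Col4a2 passed in every heart, and the cartilage collagens Col2a1, Col9a1, Col10a1 and Col11a1 in none.

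**Figure D4:**
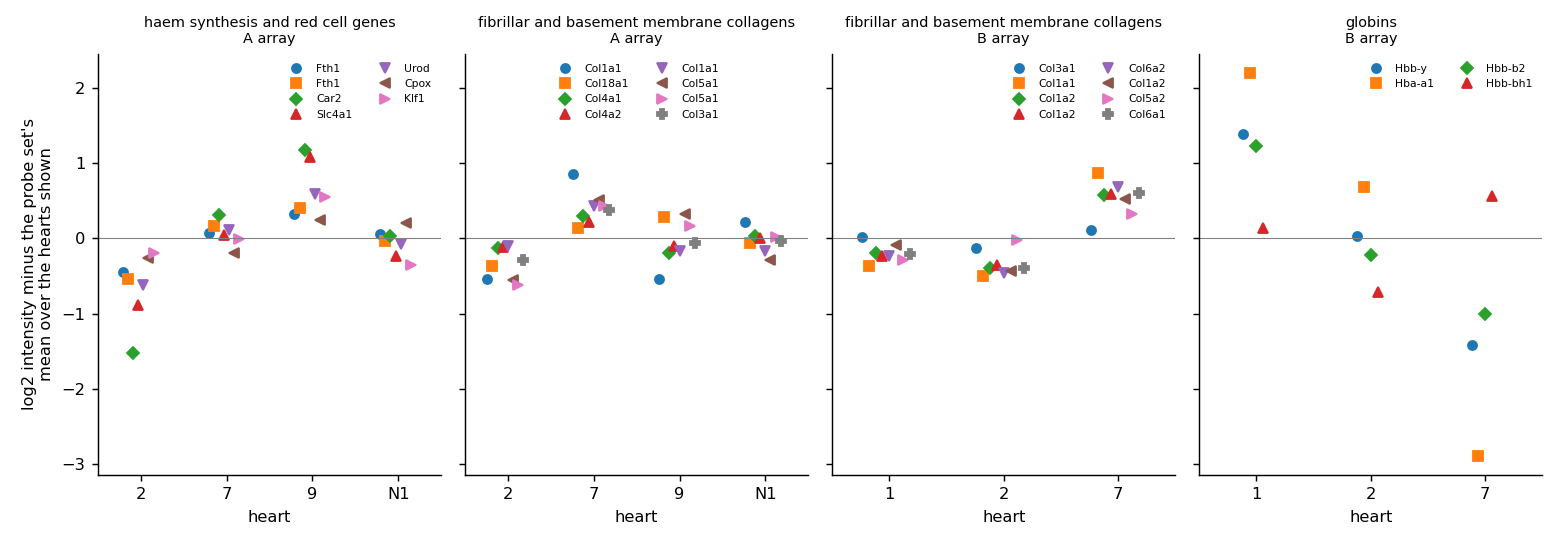
Log2 intensity of each probe set above background in every heart, minus its mean over the hearts shown, for red cell genes and collagens on A and collagens and globins on B; each symbol is 1 probe set. Red cell genes lie low in heart 2 and high in heart 9, collagens lie high in heart 7, and 3 of 4 globin probe sets fall from heart 1 to heart 7 while Hbb-bh1 does not.

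Of 34 other matrix genes 20 passed in every heart. Sparc, a collagen-binding matrix protein, averaged 18850.5 ± 5106 (SD, n = 5), and Fn1, fibronectin, 13055 ± 1539 (SD, n = 3). Eln, the elastic fibre protein of vessel walls, read 6086, 6057, 17181, 14314 and 11397 in hearts 1, 2, 7, 9 and N1, with hearts 1 and 2 below the other 3. Its B probe set was above background in 1 of 3 hearts. Postn and Vcan, matrix proteins of the cardiac cushions, averaged 10471 ± 2016 (SD, n = 3) and 8427 ± 1539 (SD, n = 4). Other Vcan probe sets on A were above background in some hearts or in none. Mgp, an inhibitor of calcification, averaged 6585 ± 3649 (SD, n = 3) on B, with heart 7 highest at 10763, and was in no heart above background on A. Serpinh1, the chaperone of collagen, averaged 18168 ± 701 (SD, n = 4). The gelatinase Mmp2 averaged 6772 ± 926 (SD, n = 4), and Mmp3, Mmp9, Bmp1 and Ccn1 were in no heart above background.

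The labelled tissue was checked against markers of the cell types it could hold. All 10 measured heart muscle markers were above background in every heart. Of 6 endothelial markers 5 passed in every heart and Pecam1 in some. Eng, a co-receptor for transforming growth factor beta on endothelium, read 11278, 10509, 18683, 20836 and 15431 in hearts 1, 2, 7, 9 and N1, and Cdh5, the endothelial cadherin, 3134, 3879, 4241 and 3954 in hearts 2, 7, 9 and N1. Epicardial markers passed in 4 of 5 cases: Upk3b averaged 2937 ± 312 (SD, n = 4), Wt1 read 1686, 1818, 3077, 3363 and 3238 in hearts 1, 2, 7, 9 and N1, and Tcf21 and Krt19 averaged 1885 ± 242 (SD, n = 4) and 1398 ± 288 (SD, n = 4), while Aldh1a2 was in no heart above background. A second Wt1 probe set and a second Cdh5 probe set were in no heart above background. Of 4 smooth muscle markers Acta2, Tagln and Cnn1 passed in every heart, and Myh11, the heavy chain of mature smooth muscle, in none. Acta2, which early heart muscle also makes, read 66425, 43592, 40522, 30459 and 51960.2 in hearts 1, 2, 7, 9 and N1.

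Markers of neighbouring tissues were mostly near or below the background. Many genes were: of all 5951 named genes, 3042 were above background in no heart and 2083 (35%) in every heart. With so few markers per tissue, the counts below cannot show that a tissue was absent. Of 6 liver markers none passed in every heart: Alb, Apoa1, Ttr, Hnf4a and Ahsg passed in no heart, and Afp, the fetal serum protein of liver and yolk sac, read 2102, 355, 249, 258 and 166 in hearts 1, 2, 7, 9 and N1, above background in heart 1 alone, as was its A probe set. The summed level of the liver markers measured in a heart ran from 609 in heart N1 to 2743 in heart 1, with hearts 1, 9 and N1 lacking some of the 6 values. The lung and foregut markers Nkx2-1, Foxa2, Cdh1 and Epcam passed in no heart, and Sftpc in 1 of 4. Among skeletal muscle markers only Tnni2 passed in every heart, Myog in 1 of 4, and Myod1, Myf5, Actn3 and Tnnt3 in none. Of neural markers Gap43, a protein of growing axons, passed in every heart at 1511 ± 381 (SD, n = 4), and Th, Nefl and Sox10 in none. Leukocytes were represented by Lyz2, the lysozyme of macrophages, at 6346, 6584, 8508 and 5928 in hearts 2, 7, 9 and N1, and by Ptprc, the common leukocyte antigen, at 2079.7, 3458, 4277 and 2373 in hearts 2, 7, 9 and N1, both highest in heart 9; Csf1r, Cd68 and Mpo were in no heart above background.

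Genes of protein synthesis, folding and cell division were widely detected. Of 39 cytosolic ribosomal protein genes 34 passed in every heart, at a median percentile of 99.1. Rps28 on A read 65651, 47170.0, 53698 and 48292 in hearts 2, 7, 9 and N1, and Rpl10a, among the 6 named A probe sets of smallest spread, 27268, 26557, 27974 and 27486 in hearts 2, 7, 9 and N1. The 5 not above background in any heart (Rpl4, Rpl32, Rpl27, Rps7 and Rpl34) also encode ribosomal proteins. Translation factors passed in 19 of 23 cases and chaperones in 25 of 27, among them the mitochondrial chaperone Hspd1 at 23183 ± 1773 (SD, n = 5) and the small heat-shock protein Hspb1 at 26332 ± 2582 (SD, n = 4). Cell cycle genes passed in 31 of 40 cases: the mitotic kinase Cdk1 averaged 15197 ± 2555 (SD, n = 4), the proliferation antigen Mki67 8847 ± 2132 (SD, n = 5), and the cyclin-dependent kinase inhibitor Cdkn1c, an imprinted brake on growth, 19639 ± 3431 (SD, n = 3). Myc, Rb1, Rbl1 and Cdkn2a passed in no heart.

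Imprinted genes of fetal growth were mostly detected, with 11 of 12 above background in every heart and a median percentile of 91.7. H19, a maternally expressed noncoding RNA, read 165006, 86931, 31485, 26374 and 55874 in hearts 1, 2, 7, 9 and N1. Mest, a paternally expressed hydrolase, gave 41545, 28033, 29368 and 24970.1 in hearts 2, 7, 9 and N1, and Gnas, the stimulatory G protein, 39131, 43134, 46801 and 43872 in hearts 2, 7, 9 and N1. Ndn, the growth suppressor necdin, was even between hearts at 4893, 4694, 4697 and 4616 in hearts 2, 7, 9 and N1. Grb10, an adaptor that restrains insulin signalling, read, by 1 of its 2 B probe sets, 12754, 12656 and 4359.6 in hearts 1, 2 and 7, lower in heart 7 than in hearts 1 and 2. Phlda2 was in no heart above background. Among immediate early genes Jund read 12304, 8033, 17662, 14889 and 18533 in hearts 1, 2, 7, 9 and N1 and Klf2, a factor induced by blood flow, averaged 1407 ± 604 (SD, n = 4), the 2 of 18 that passed in every heart (1 at 3 times the noise), while Fos, Junb, Egr2 and Atf3 passed in none. Of 41 genes of morphogens and growth factor signalling 10 passed in every heart (6 at 3 times the noise), led by the heparin-binding growth factor Mdk at 22583 ± 4263 (SD, n = 3), 7 in some and 24 in none. These 10 are 24.4%, against 35% of all named genes.

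The spread between hearts was small for most transcripts. Over the 2106 A probe sets above background in every heart, each with at least 4 values, the median SD of log2 intensity was 0.24, a factor of 1.18, and 10% of them exceeded 0.44. On B, over 1312 probe sets with at least 3 values, the median was 0.27 and 10% exceeded 0.57. Only 5 A probe sets and 25 B probe sets had an SD above 1. On A the median spread lay between 0.19 and 0.26 at every level of mean intensity. On B it was 0.54 for means above 32000, against 0.22 to 0.29 at lower levels, and quantile scaling brought the brightest group to 0.25.

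**Figure D5:**
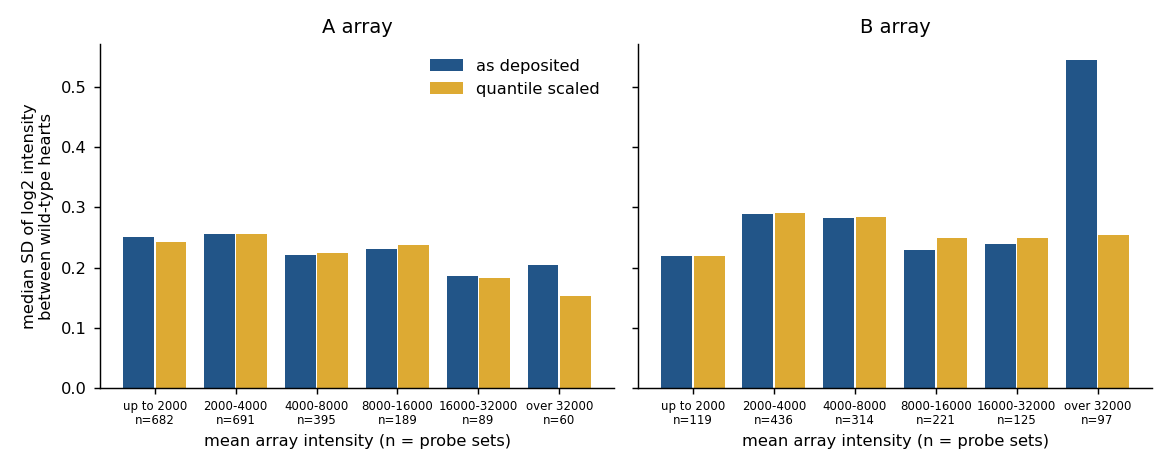
Median SD of log2 intensity between wild-type hearts, by mean intensity of the probe set, for values as deposited and after quantile scaling of all arrays; the number of probe sets stands under each pair of bars. The bars lie between 0.15 and 0.29 except B probe sets above 32000 as deposited, at 0.54.

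The named A probe set with the largest spread was Zfp385a, a zinc-finger protein, with 1401, 1215, 5559, 6275 and 5007 in hearts 1, 2, 7, 9 and N1. Hearts 1 and 2 lay below the other 3. This split, like that of Crip2 and Eln, was read off the values, and how many other A probe sets share it was not counted. Creg1, a lysosomal glycoprotein, read 1166, 2506, 6946 and 2550.1 in hearts 2, 7, 9 and N1, and Ube2l6, the conjugating enzyme of the interferon-induced modifier ISG15, 2069, 4185, 7726 and 2835 in hearts 2, 7, 9 and N1, both highest in heart 9 and lowest in heart 2, as were Car2 and Slc4a1. Ackr3, an atypical chemokine receptor, had the same extremes with 1076, 1786, 4300.5 and 2311 in hearts 2, 7, 9 and N1. Notch2, a receptor of cell fate choice, read 1091, 4963, 4279 and 2987 in hearts 2, 7, 9 and N1, lowest in heart 2. Ubr4, Extl3 and Polr2a, a ubiquitin ligase, a heparan sulfate glycosyltransferase and the large subunit of RNA polymerase II, were also among the 12 named A probe sets of largest spread, with SDs of log2 intensity of 0.82, 0.81 and 0.78. Extl3 and Polr2a were lowest in heart 9 and Ubr4 in heart 2.

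Actb, the cytoplasmic beta actin, was also among the probe sets of largest spread. Its 3 named A probe sets were highest in heart 2, and the most variable read 9170.2, 2430.5, 3183 and 1769 in hearts 2, 7, 9 and N1. The array's own control probe set for the 3′ end of beta actin read 47329, 52097, 55155, 59323 and 55088 in hearts 1, 2, 7, 9 and N1, with no such excess in heart 2. The ratio of the 3′ to the 5′ control signal, a measure of RNA integrity and labelling, ran from 0.83 to 0.95 for Gapdh and from 0.87 to 1.47 for beta actin on A. Whether RNA quality has a part in the Actb difference was not tested.

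On B, after Hba-a1, the largest spreads among named probe sets were those of Hbb-y, Eef1a1, Alas2, Actc1, Slc4a1, H19, Gapdh, Cyp2d10 and Hbb-b2. Quantile scaling reduced the SD of log2 intensity of Gapdh from 1.07 to 0.11 and that of Eef1a1 from 1.27 to 0.56, and left Alas2 (1.23 and 1.41), Slc4a1 (1.17 and 1.19) and Cyp2d10 (1.02 and 1.03) about where they were. It raised the SD of other bright B probe sets, among them Hmgn1 (0.30 to 1.01) and one each of Pabpc1 (0.27 to 0.77) and Rpl28 (0.28 to 0.61). The steadiest named probe sets were Arhgap1, a GTPase-activating protein, on A, with 3238, 3282, 3246 and 3222 in hearts 2, 7, 9 and N1, and Hspa5, the chaperone of the endoplasmic reticulum, on B, with 15101, 14717 and 14597 in hearts 1, 2 and 7. Nop53, Hax1, Psmd7 and Dnajb1 on A and Capzb, Psmg1, Nfkbia, Nap1l1 and Snrpa on B had SDs of log2 intensity of 0.02 to 0.04.

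Probe sets of one gene often disagreed. Of 1160 genes with several named probe sets, 237 had one above background in every heart and another in none. Calr, the calcium-binding chaperone calreticulin, averaged 11889.6 ± 3963 (SD, n = 5) by one B probe set and was in no heart above background by another. Over the 383 genes with probe sets on both arrays, the Spearman correlation of their means between A and B was 0.62. Among the genes of the lists, one not above background in any heart was so by all its named probe sets, and one listed as above background was so by its brightest.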

How the data were processed

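Total RNA of 5 entire wild-type hearts at embryonic day 12.5 was measured on A and B arrays. The authors deposited 1 linear intensity per probe set and array. Negative values show that some signal had been subtracted, but the software and the way of subtraction are not given in the sources used here. On the wild-type A arrays of hearts 2 and N1 and B arrays of hearts 1 and 7, which have no blank cells, the mean of the deposited intensities between the 2nd and 98th percentile is 1500 on each. Blank cells were treated as missing.

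Control probe sets (55 per table) were left out. A probe set needed at least 3 wild-type values, and its background level was 2 times the root mean square of the negative values of all 13 hearts. Gene symbols came from the platform annotation, updated by gene ID: 5541 A and 2001 B probe sets had 1 gene, 197 and 27 several, 791 and 4512 none. Each gene was represented by its probe set of highest mean. SDs of log2 intensity used probe sets above background in every heart, with at least 4 values on A and 3 on B. No test between groups was made, since no groups are compared; single outlying hearts were sought with Dixon's criterion. Named genes are the 25 leading named probe sets of each table, up to 8 members per list by mean, list members not above background, the 12 named probe sets of largest and 6 of smallest spread, and known isoform pairs. Some genes outside this rule (among them Mki67, Grb10, Gap43, Afp, Calr, Cyp2d10) are tissue markers or were chosen after their values were seen, and within lists only some of the members the rule covers are named. The hearts, the 33 lists and the rules were chosen with earlier results of these data known. Python 3.11.15, pandas 2.3.3 and numpy 2.4.6 were used, and the detection step was tested on simulated data. Alternatives in background level, noise estimate, scaling, blank cells, probe set choice and left-out hearts are given in the closing section.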

Additional observations from a re-analysis of the deposited data

Results flagged for a closer look

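In 8 of 96 groups of hearts examined, 1 heart lay far from the others by Dixon's criterion. The criterion flags about 1 in 20 of independent, normally distributed groups. Those examined share the same arrays, and some were named for their spread or after their values were seen. The 8 therefore cannot be set against that rate. Heart 2 was high for Myl2 on A at 64971.1, against 41648.2 to 45518.1 in the others, and for Cox8a on A at 50398.9. Heart 7 was high for Gja1 on B at 10015.1. Heart N1 was low for Fabp3 on A at 21154.2. Heart 1 was high on B for Hbb-b2 at 141002 and for Afp at 2102.3, where the others read 165.7 to 355.2. Heart 9 was high for Bpgm on B at 14955.8 and for Vcan on A at 10733.4, where the others read 7554.3 to 7722.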

How the results depend on the processing

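Of the counts above background in every heart, the A count lay between 1607 and 3088 and the B count between 1010.0 and 1937 under the other noise estimates, background levels, scaling and blank-array settings, except that the robust noise estimate gave 2115 on B and that probe sets with 5 values alone gave 485 on A and 458 on B, fewer being eligible. Leaving out 1 heart at a time gave 2117 to 2207 on A and 1320.0 to 1386 on B. Such a count can only stay or rise when a heart is left out, so these ranges do not show a possible fall. The median SD of log2 intensity ran from 0.2111 to 0.2391 on A and from 0.1984 (without heart 7) to 0.28 on B with 1 heart left out, and was 0 on both tables with no filter and low values raised to the background level, where most values tie. Of the 50 leading named probe sets, leaving out 1 heart kept 48 to 50 on A and 47 to 50 on B. Only 3 of the 50 on A and 30 on B had 5 values, and 1 and 1 had the plain suffix. Ranking such probe sets alone keeps exactly these, whatever the ranks, so it does not test the ranking. The 347 list genes above background in every heart became 309 to 357. At 3 times the noise 6 of the 33 list counts moved by over 1.5 times (conduction to 3, epicardium to 3, skeletal muscle to 1, neurons to 0, immediate early genes to 1, morphogens to 6). With the middle probe set per gene 3 did (cardiac transcription factors to 1, globins to 3, lung to 0), and 1 each without heart 2 (leukocytes to 5), 7 (liver to 1) or N1 (neurons to 2). No paired analysis was possible because no groups are compared. Values below the background level have no order, and blank cells leave many B means resting on hearts 1, 2 and 7.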
